A study of Mus musculus with 6 samples.

Results

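The release of paused RNA polymerase II into productive elongation was followed through 9 genes, Hexim1, Cdk9, Ccnt1, Ccnt2, Larp7, Mepce, Polr2a, Brd2 and Ell2. They were chosen by name for their known role in this step, with earlier results of these data known. All 9 were found in the deposited table of 25865 genes, and all 9 passed the filter on low values (a 6-sample mean of 1 or more), as did 16223 genes in all. The cells were group 2 innate lymphoid cells (ILC2s), tissue lymphocytes that make type 2 cytokines, sorted from C57BL/6 mouse large intestine and kept for 5 days with 10 ng/mL each of IL-33, IL-25, IL-7 and IL-2. The Toyocamycin group (n = 3) then received toyocamycin, an adenosine analogue, for 16 h, and the Control group (n = 3) received its vehicle. The sources used here give no age, sex, toyocamycin dose or name of the vehicle, and no cell or animal was genetically modified as far as the labels say. Since no label says whether the 3 samples of a group came from different cultures or animals, the p-values cover the spread among these samples alone, and that spread may be technical.

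Soon after a gene is started, RNA polymerase II halts close to the promoter, held by the factors NELF and DSIF. The kinase P-TEFb, made of CDK9 with cyclin T1 or T2, phosphorylates these factors and the tail of the polymerase and lets it move on. Much of the cell's P-TEFb is kept inactive in a particle built on the 7SK RNA, in which HEXIM1 blocks the kinase while LARP7 and MEPCE protect the RNA. BET proteins such as BRD2 bind acetylated histones and help to bring the active machinery to genes, and ELL2 is part of the super elongation complex that carries P-TEFb. HEXIM1 is also known as a gene whose transcript rises in many cells given BET inhibitors.

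Promoter sequences of these genes are described here, and no relation of them to the changes was tested. The 120 bases before the outermost annotated start of Hexim1, Polr2a, Larp7 and Brd2 are shown 5′ to 3′ on the gene's strand, because in these 4 genes that stretch holds no annotated exon. The sequences are from RefSeq (GRCm38.p6, the build also called mm10), and capitals mark each match to 1 of the short motifs described after them.
Hexim1, chr11:103116111-103116230, plus strand: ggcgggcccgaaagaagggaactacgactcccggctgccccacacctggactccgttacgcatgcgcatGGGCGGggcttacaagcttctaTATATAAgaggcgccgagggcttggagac
Polr2a, chr11:69758638-69758757, minus strand: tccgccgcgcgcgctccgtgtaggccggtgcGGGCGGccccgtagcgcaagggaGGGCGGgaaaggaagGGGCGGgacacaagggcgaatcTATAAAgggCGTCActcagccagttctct
Larp7, chr3:127553350-127553469, minus strand: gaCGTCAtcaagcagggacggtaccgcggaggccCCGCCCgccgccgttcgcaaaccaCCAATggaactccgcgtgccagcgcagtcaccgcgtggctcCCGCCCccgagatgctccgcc
Brd2, chr17:34122635-34122754, minus strand: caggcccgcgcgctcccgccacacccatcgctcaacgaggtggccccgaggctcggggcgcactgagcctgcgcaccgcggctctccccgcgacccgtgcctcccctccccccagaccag

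The motifs were searched on both strands, and a match is a description of letters and not a binding site. The TATA box TATAAA stood in Polr2a, its first base 29 bases before the outermost annotated start, and the variant TATATAA stood at the same distance in Hexim1. For Hexim1 that start (103116231) lies upstream of the RefSeq start (103116325), from which the variant is farther. The other letters searched were the CCAAT box CCAAT, the GC box GGGCGG, the CRE core TGACG and the E-box CACGTG. In the whole window of 300 bases, from 250 before to 50 after each RefSeq start, 8 of the 9 genes had an entry. All 8 held a GC box, which 35.7% of all 32851 windows hold. A gene with several windows, such as Brd2, was counted if any of them held the motif. The shares are of single windows, so counts and shares are unlike measures. TATAAA was in 1 of the 8 (13.6% of all windows), TATATAA in 1 (3.24%), CCAAT in 5 (37.4%), TGACG in 5 (20.8%) and CACGTG in none (7.15%). The TATA box of Polr2a shares no base with the reverse match to TGACG that follows it.

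Of the 9 transcripts, 7 were higher and 1 was lower with toyocamycin at an adjusted p under 0.05, and Polr2a did not pass. Among all genes tested 65.9% were called, 32.8% higher and 33.1% lower, so calls in either direction were the rule in these cells. Among genes with a mean of at least 10, 78.8% were called, 39.3% higher and 39.5% lower. Values are normalised read counts (reads per gene divided by 1 factor per sample, given as mean ± SD, n = 3), log2 changes with their standard errors (SE) and adjusted p-values are from limma, and folds are ratios of group means. In all 9 genes the groups did not overlap, as in 69.1% of all genes: in 8 members the toyocamycin samples were above (34.2% of all genes) and in 1 below (34.9%). Log2 changes of at least 1 were called in 4 members (Ccnt2, Brd2, Cdk9 and Ccnt1) and in 17.0% of all genes. With equal totals or quantile normalization only Ccnt2 of the 9 reached 1 (1.90 and 1.84). The directions are relative to the deposited scaling: equal totals for the samples shifted the median log2 change over all genes to −0.35 from −0.03, and 36.9% of all calls were higher in place of 49.7%. Of the 9 members, 5 were then higher and 2 lower, beside 24.9% and 42.5% of all genes.

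**Figure D1:**
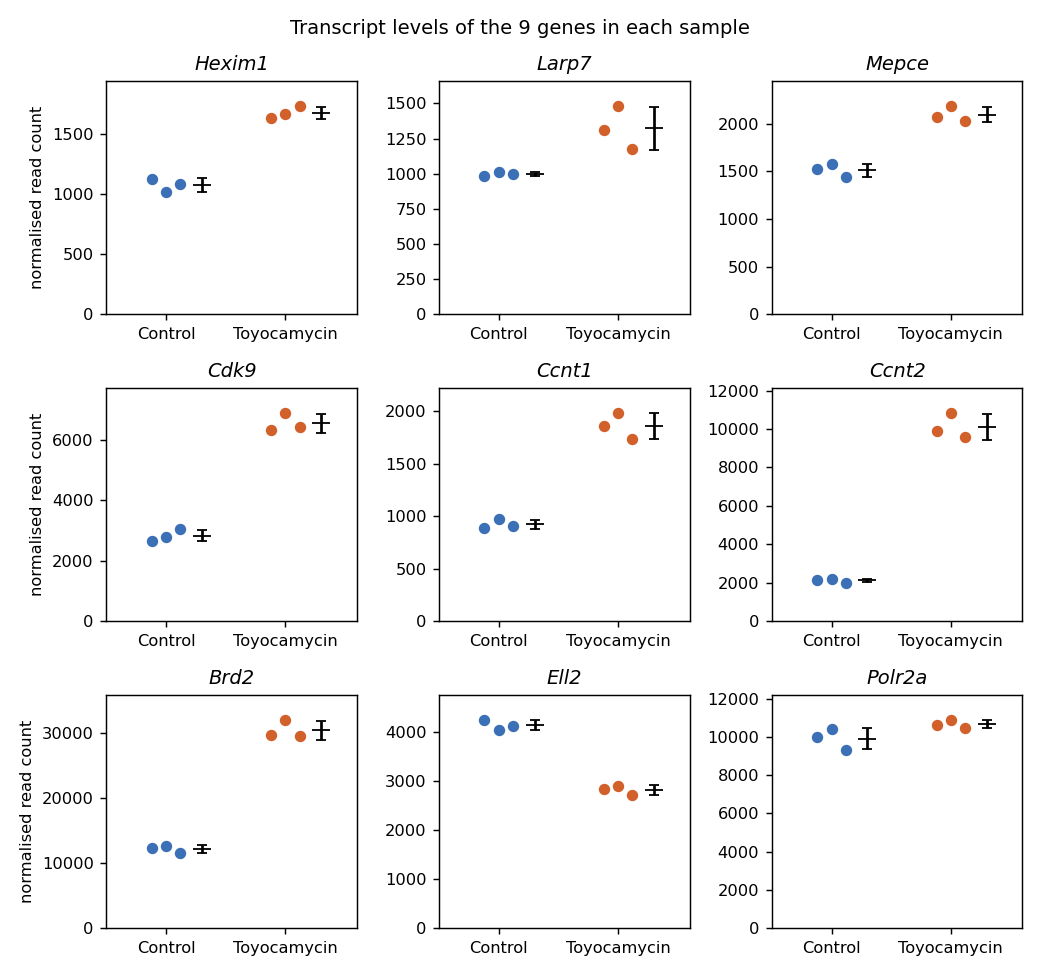
Normalised read counts (y axes, from 0) of the 9 genes in the 3 Control samples (blue) and 3 toyocamycin samples (orange), left to right in the order of their replicate numbers; black marks are the mean ± SD of each group. Ccnt2 rose from about 2118 to 10105, Ell2 is the gene whose toyocamycin samples lie below the Control samples, and the Polr2a groups lie close together.

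Depth was 22.3 M to 36.7 M recovered reads per sample, and each member had at least 970 reads in every sample. The ILC2 markers were high in every sample: all 9 on the list were detected, with summed values of 376273 to 386189 in Control and 289357 to 315431 with toyocamycin. The highest of them, Il1rl1, moved against the sum (means 104886 in Control and 125996 with toyocamycin). The markers of 8 other kinds of cell were low. The fibroblast and endothelial list summed to between 1144 and 1361 in Control and 658.9 to 866.9 with toyocamycin, and no other list passed 869.4 in any sample; the Ifng and Fcer1a transcripts were at 0 in all samples. The B cell list went from between 361.5 and 464.3 to between 182.1 and 212.6. Most of that sum was Cd79b (means 390.5 in Control and 183.7 with toyocamycin), and 2 of its 5 markers passed 10 in any sample. Pecam1 likewise made up most of the fibroblast and endothelial sum (1012 and 565). Whether such cells were present, and their part in the results, was not tested. The 45S precursor of ribosomal RNA was 0.169% ± 0.083 of a Control sample's reads and 0.68% ± 0.14 of a treated sample's, and the 13 mitochondrially encoded mRNAs together were 2.79% ± 0.045 and 3.81% ± 0.025. The part of these RNAs in the results was not tested either. In such bulk samples a lower share of a cell type and less RNA per cell cannot be told apart.

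The kinase and its cyclins were higher. Cdk9 (chromosome 2, 32705784 to 32713076), which encodes the catalytic subunit of P-TEFb, was measured at 2666, 2786 and 3046 in Control and at 6317, 6892 and 6427 with toyocamycin. The lowest treated sample was thus far above the highest Control sample. The group means were 2833 ± 195 and 6545 ± 306, a 2.31-fold rise (log2 change 1.21, SE 0.059, adjusted p = 8.22e-14, limma). The log2 change was 0.86 with equal totals, 0.73 with quantile normalization and 1.44 after GC and length correction. Ccnt2 (chromosome 1, 127774164 to 127808061), the gene of cyclin T2, changed most among the 9. It stood at 2162, 2181 and 2010 in Control and at 9886, 10844 and 9584 with toyocamycin. Its mean went from 2118 ± 93.7 to 10105 ± 658, or 4.77-fold (log2 change 2.25, SE 0.057, adjusted p = 4.36e-18, limma), and 3.15% of the genes tested had a higher log2 change. Ccnt1 (chromosome 15, 98538689 to 98570923), the gene of cyclin T1, the more widely studied partner of CDK9, was at 887.9, 972.4 and 908.4 in Control and at 1858, 1985 and 1740 with toyocamycin. The gene shares 695 exon bases (7.6%) with the antisense gene 9330020H09Rik, which was at 36.9 ± 8.34 in Control and 67.5 ± 15.3 with toyocamycin. The rise of Ccnt1 was 2.02-fold (log2 change 1.01, SE 0.071, adjusted p = 4.13e-11, limma).

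Because 1 factor per sample cancels in a ratio of 2 transcripts of the same sample, 7 such ratios were compared between the groups. The ratio of Ccnt2 to Ccnt1 reads was 2.43, 2.24 and 2.21 in Control and 5.32, 5.46 and 5.51 with toyocamycin, so the cyclin T2 transcript gained on that of cyclin T1 by 1.24 on the log2 scale. The ratio of Ccnt1 to Cdk9 was 0.327 ± 0.026 in Control and 0.284 ± 0.012 with toyocamycin, a log2 change of −0.20 that turned to 0.18 with quantile normalization. For both ratios the groups did not overlap and the exact permutation test (two-sided) gave p = 0.1, which is the smallest p that 3 against 3 samples allow, and 0.14 after adjustment over the 7 ratios.

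The inhibitor and its protein partners in the 7SK particle were higher. Hexim1 (chromosome 11, 103116231 to 103119725), a gene of a single exon that encodes the inhibitor, was at 1129, 1017 and 1088 in Control and at 1631, 1663 and 1733 with toyocamycin. Its groups were apart, and the mean went from 1078 ± 56.6 to 1676 ± 52, or 1.55-fold (log2 change 0.64, SE 0.068, adjusted p = 3.24e-08, limma). With equal totals its log2 change was 0.29 (adjusted p = 0.00114, in a range of 2.05e-16 to 0.00114 over the alternatives). Mepce (chromosome 5, 137781906 to 137787655), whose product caps the 7SK RNA, was at 1523, 1573 and 1439 in Control and at 2067, 2185 and 2030 with toyocamycin. The log2 change was 0.47 (SE 0.063, adjusted p = 9.89e-07, limma). Larp7 (chromosome 3, 127536714 to 127553349), whose product binds the end of the 7SK RNA, was at 984.9, 1011 and 1001 in Control and at 1310, 1481 and 1178 with toyocamycin. Its treated samples were more spread than those of any other member relative to their mean, and the log2 change was 0.40 (SE 0.08, adjusted p = 0.00015, limma). With equal totals neither Larp7 (0.05, adjusted p = 0.533, in a range of 1.82e-05 to 0.533) nor Mepce (0.12, adjusted p = 0.0501, in a range of 1.34e-11 to 0.0501) passed. With the deposited scaling these 3 log2 changes were below those of Cdk9, Ccnt2 and Ccnt1. Corrected for GC content and length, Mepce (1.05) and Hexim1 (0.79) were above Ccnt1 (0.71).

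The inhibitor transcript was then set against that of the kinase. The ratio of Hexim1 to Cdk9 was 0.424, 0.365 and 0.357 in Control and 0.258, 0.241 and 0.27 with toyocamycin, a log2 change of −0.57 (exact permutation p = 0.1, adjusted 0.14). Every treated sample was below every Control sample. With 3 against 3 samples this test cannot go below 0.1, so it could not pass and does not decide. The log2 change was −0.20 with quantile normalization. The ratio of Hexim1 to Larp7 overlapped between the groups, at 1.08 ± 0.07 and 1.28 ± 0.18 (exact permutation p = 0.2, log2 change 0.24, or 0.13 without Toyocamycin replicate 3). Hexim2, the paralogue of the inhibitor, had few reads: its levels were 51.69 ± 12.5 in Control and 49.25 ± 22.6 with toyocamycin, and it did not pass (log2 change −0.13, adjusted p = 0.761, limma), with a sign that depended on the setting. The ratio of Hexim1 to Hexim2 overlapped too (exact permutation p = 0.3, log2 change 0.77, or 0.21 with quantile normalization).

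The 7SK RNA itself (Rn7sk, chromosome 9, 78175303 to 78175633) was at 34.43, 8.776 and 1.755 in Control and at 108.3, 69.45 and 58.28 with toyocamycin (log2 change 2.97, SE 0.62, adjusted p = 0.000243, limma). These are 2 to 82 reads per sample for an RNA that is very abundant in cells, lacks a poly(A) tail and has many near-identical copies in the genome, so the value is uncertain. The share of the 45S ribosomal precursor moved with it, as given above, and its part in the result was not tested.

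**Figure D2:**
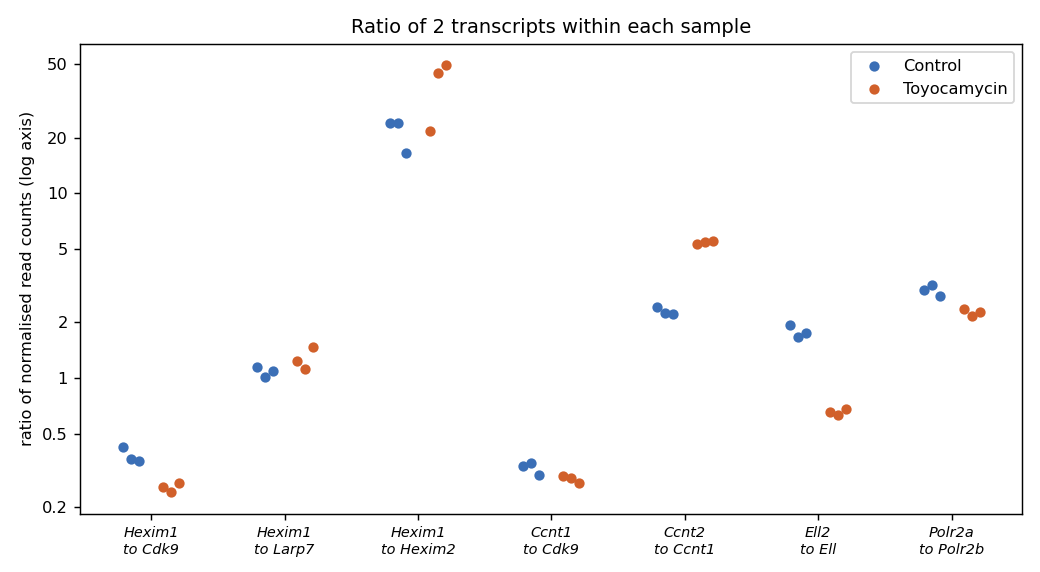
Ratio of the normalised read counts of 2 transcripts within each sample (y axis, logarithmic) for 7 pairs of genes, Control samples in blue and toyocamycin samples in orange. The groups are apart in 5 pairs, with Ccnt2 to Ccnt1 higher and Ell2 to Ell lower with toyocamycin, and overlap for Hexim1 to Larp7 and Hexim1 to Hexim2.

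Among the BET genes, Brd2 (chromosome 17, 34112023 to 34122634) had the highest level per kilobase of the 9 members in both groups. It was at 12218, 12645 and 11558 in Control and at 29623, 32045 and 29468 with toyocamycin, with no overlap. The mean went from 12140 ± 548 to 30379 ± 1446, or 2.5-fold (log2 change 1.32, SE 0.052, adjusted p = 3e-15, limma). The log2 change of Brd2 was 0.97 with equal totals, 0.83 with quantile normalization and 1.78 after GC and length correction. Its exons share 360 bases (4.6%) with those of H2-DMa and 405 (5.2%) with those of the antisense gene CR974462.3, both on the other strand. Since the strand setting of the counting is not given, reads there cannot be told apart. H2-DMa itself was at 92.9 ± 17.5 in Control and 82.6 ± 17 with toyocamycin, and CR974462.3 has no values in the deposited table. Brd3 rose 1.91-fold (log2 change 0.93, or 0.58 with equal totals), and Brdt, a BET gene known from the testis, was near the limit of detection in both groups and did not pass.

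Ell2 (chromosome 13, 75706757 to 75772364) was the member that fell. It was at 4250, 4033 and 4129 in Control and at 2837, 2892 and 2705 with toyocamycin. The treated samples lay close together and below all Control samples, and the mean was 1.47-fold lower (log2 change −0.56, SE 0.054, adjusted p = 7.82e-09, limma). The fall was greater with equal totals (−0.91), quantile normalization (−0.99) and GC and length correction (−0.95). Its paralogue Ell moved the other way, from 2316 ± 129 to 4285 ± 296 (log2 change 0.89, between 0.46 with quantile normalization and 1.47 after GC and length correction). Within each sample the ratio of Ell2 to Ell was 1.95, 1.66 and 1.76 in Control and 0.658, 0.633 and 0.68 with toyocamycin. This ratio of reads, which is not per length, was above 1 in every Control sample and below 1 in every treated sample (log2 change −1.44, exact permutation p = 0.1, adjusted 0.14).

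Polr2a (chromosome 11, 69733997 to 69758637), which encodes the catalytic subunit of the polymerase with the tail that P-TEFb phosphorylates, changed least with the deposited scaling. It was at 9997, 10404 and 9330 in Control and at 10632, 10905 and 10468 with toyocamycin. The groups were just apart, and the log2 change of 0.11 (SE 0.051) did not pass (adjusted p = 0.0735, limma). The direction depended on the scaling: Polr2a was called lower at equal totals (−0.24, adjusted p = 7.46e-05) and under quantile normalization (−0.38, adjusted p = 8.04e-07), and higher after GC and length correction (0.26, adjusted p = 1.58e-05) and without Control replicate 2 (0.14, adjusted p = 0.0436). Its change was also the smallest after GC and length correction. Larp7 (0.05) and Mepce (0.12) changed less in size than Polr2a with equal totals, as they did with quantile normalization (0.355 and 0.226). The adjusted p of Polr2a ran from 8.04e-07 to 0.307 over all alternatives. Against the second largest subunit gene, Polr2b, the ratio was 2.98 ± 0.21 in Control and 2.27 ± 0.1 with toyocamycin (log2 change −0.39, exact permutation p = 0.1, adjusted 0.14).

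**Figure D3:**
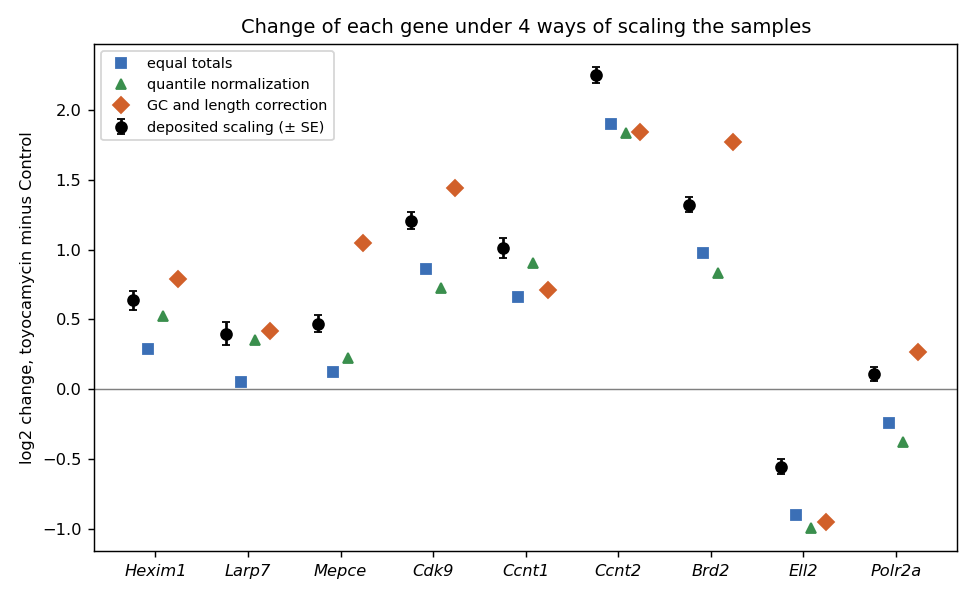
Log2 change (toyocamycin minus Control, y axis) of the 9 genes with the deposited scaling (black, ± SE), equal totals (blue), quantile normalization (green) and GC and length correction (orange). Ccnt2, Cdk9, Ccnt1, Brd2 and Hexim1 stay above 0 and Ell2 below 0 in all 4, while the sign of Polr2a changes.

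Levels between genes were compared per kilobase of exon, with the joined exons of GENCODE M21 as the length, as normalised read counts per kilobase. In Control, Brd2 (1551 ± 70) and Polr2a (1402 ± 76.7) led, followed by Cdk9 (614 ± 42.2). Mepce (425 ± 19), Larp7 (422 ± 5.59) and Ell2 (421 ± 11.1) overlapped in their samples, Hexim1 was at 308 ± 16.2, and Ccnt2 (172 ± 7.59) and Ccnt1 (101 ± 4.81) came last. With toyocamycin Brd2 reached 3882 ± 185. Polr2a (1510 ± 31.2) and Cdk9 (1419 ± 66.3) then overlapped, as did Mepce (589 ± 22.8) and Larp7 (559 ± 64.3). Ccnt2 moved from the eighth place to the fourth (819 ± 53.3), and Ell2 from the sixth to the eighth (286 ± 9.77), between Hexim1 (479 ± 14.9) and Ccnt1 (203 ± 13.4). The isoforms in use are not known, and the order depends on them: with the longest annotated transcript as the length, Ell2 was in the third place in Control and in the seventh with toyocamycin, and Cdk9 was ahead of Polr2a with toyocamycin. By that length the samples of Ell2 overlapped those of Cdk9 in Control and those of Larp7 with toyocamycin.

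The wider machinery was followed in 76 genes on 8 lists by role, the 9 members among them. Of the 67 other genes, 58.2% were higher (39 genes) and 19.4% lower (13 genes), beside 32.8% and 33.1% of all genes. Another 15 did not pass, and the median log2 change of the 67 was 0.46 beside −0.03 for all genes. With equal totals, 33 were higher (49.3%) and 25 lower (37.3%), beside 24.9% and 42.5% of all genes. With a filter of a mean of at least 10, 62.5% of these other genes were higher and 20.3% lower, beside 39.3% and 39.5% of all genes. On the P-TEFb and 7SK list 7 of 8 genes were higher (5 with equal totals), all but Hexim2, and on the BET list 2 of 3, all but Brdt. In the super elongation complex, 6 of 9 genes were higher and 1, Ell2, was lower (median 0.82). Eaf1, an ELL-associated factor, rose 3.18-fold from 7072 ± 252 to 22516 ± 1117. Eaf2 rose from 4.134 ± 2.67 to 15.42 ± 2.84 (log2 change 1.80, or 1.19 with a pseudocount of 5), but did not pass without Control replicate 3 (adjusted p = 0.0573, limma).

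The factors that hold the polymerase were divided. Of 7 NELF, DSIF and GDOWN1 genes, 5 were higher (71.4%, beside 32.8% of all genes) and 2 lower (28.6%, beside 33.1%). Their median log2 change was 0.83. Nelfe, which encodes the RNA-binding subunit of NELF, was at 1293, 1235 and 1314 in Control and at 134.7, 127 and 180.9 with toyocamycin. The treated samples lay far below all Control samples, and the fall was 8.68-fold (log2 change −3.13, SE 0.12, adjusted p = 2.23e-15, limma). Nelfcd fell 2.02-fold (log2 change −1.01, or −0.47 after GC and length correction). Polr2m, the gene of the polymerase-associated protein GDOWN1, rose 2.62-fold (log2 change 1.39, or 0.92 with quantile normalization), and Supt4a, a DSIF subunit gene, rose 2.51-fold.

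Among the PAF complex and the chaperones that travel with the polymerase, 9 of 11 genes were higher and none lower (median 0.40), led by Cdc73 (3.49-fold) and Leo1 (3.44-fold). Of all genes, 32.8% were higher and 33.1% lower. With equal totals 5 of the 11 were higher and 5 lower, beside 24.9% and 42.5% of all genes. Calls among the 12 polymerase subunit genes were 5 higher and 1 lower, and 6, Polr2a among them, did not pass (median 0.33, or −0.02 with equal totals). The 50% called was below the 65.9% of all genes. Polr2d rose 2.55-fold and Polr2h 1.84-fold (log2 change 0.88, between 0.53 with equal totals and 1.34 with quantile normalization). Polr2e had a log2 change of −0.21, which was −0.56 with equal totals and turned to 0.38 after GC and length correction. Polr2b had a log2 change of 0.50, which was 0.15 with equal totals and no longer passed with quantile normalization (0.03, adjusted p = 0.528, limma).

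With the deposited scaling all 12 other kinases and phosphatases of the polymerase tail were called (median 0.82). They were 8 higher (66.7%, beside 32.8% of all genes) and 4 lower (33.3%, beside 33.1%). Of all genes 65.9% were called, and of those with a mean of at least 10, 78.8%. With equal totals 7 of the 12 were higher and 4 lower, beside 24.9% and 42.5% of all genes. With quantile normalization 11 of the 12 were called, and after GC and length correction 10. Cdk13, a kinase of later elongation, rose 3.03-fold, and the phosphatase gene Ctdsp2 rose 3.17-fold. The phosphatase gene Ssu72 was at 1520, 1745 and 1883 in Control and at 196.8, 175.3 and 195.5 with toyocamycin. This was a 9.07-fold fall (log2 change −3.17, SE 0.099, adjusted p = 7.3e-17, limma), the most negative change on the 8 lists with the deposited scaling. Ctdspl fell 2.44-fold.

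Integrator, a complex that ends transcription by paused polymerase, had genes called in both directions. Of 14 subunit genes 42.9% were lower (6 genes) and 28.6% higher (4 genes), near the 33.1% and 32.8% of all genes, and 4 did not pass (median 0.03). With equal totals 10 were lower and 4 higher (median −0.32), beside 42.5% and 24.9% of all genes. The calls were 6 in each direction with a filter of a mean of at least 10, with the replicate block and without Control replicate 2, and 7 higher and 6 lower after GC and length correction. Ints6 fell 5.03-fold from 2137 ± 75.8 to 424.9 ± 28.3 and Ints1 4.28-fold from 4237 ± 238 to 990.3 ± 103. Ints12 rose 5.26-fold from 692.9 ± 77.2 to 3642 ± 176, and Ints13 rose 2.21-fold (log2 change 1.14, or 0.73 with quantile normalization).

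**Figure D4:**
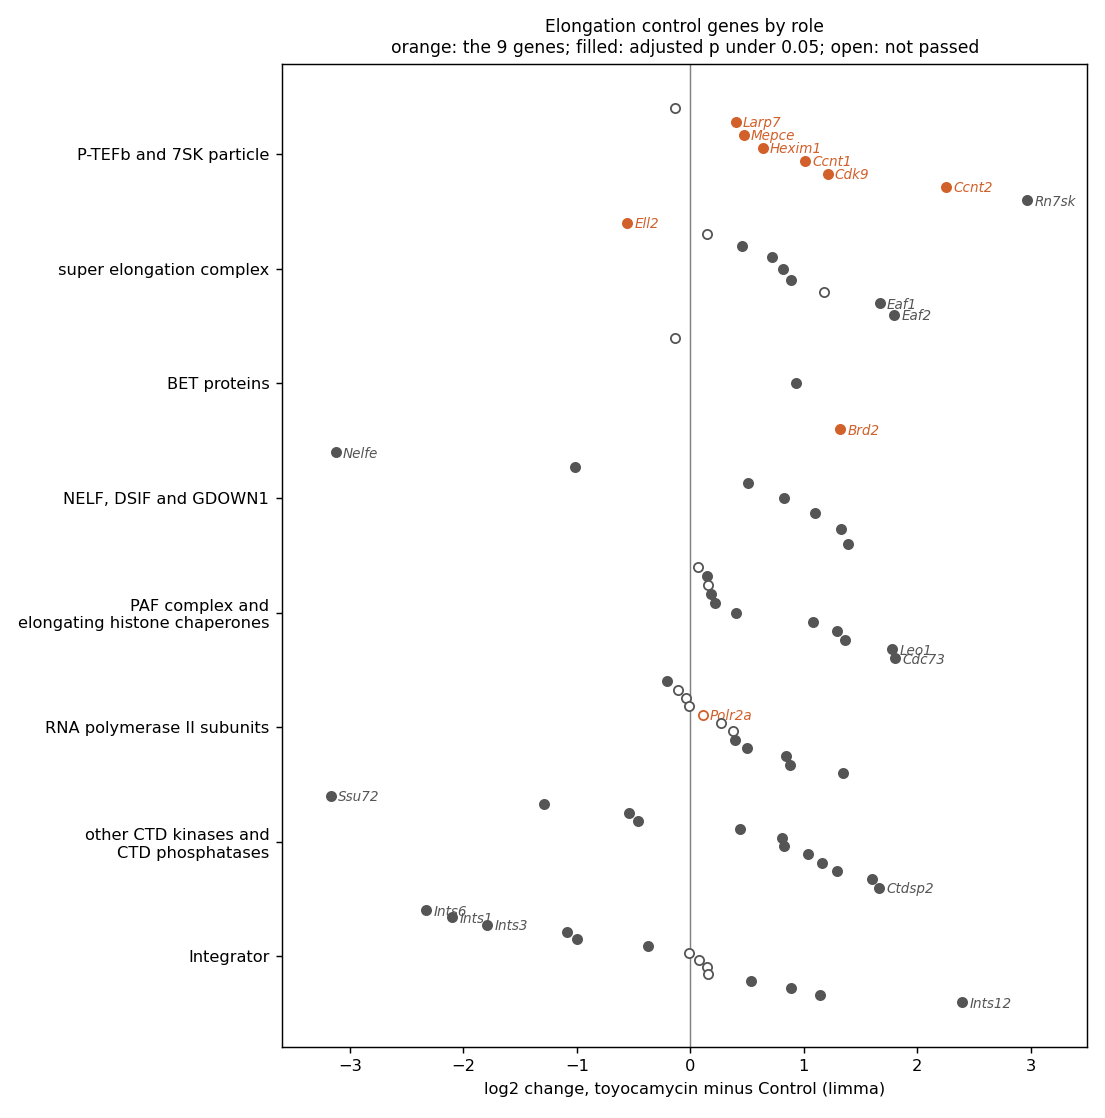
Log2 change (toyocamycin minus Control, x axis) of 76 elongation control genes, 1 point per gene, in rows by role; the 9 members are orange, filled points had an adjusted p under 0.05 and open points did not pass. Most points lie to the right of 0 in the upper rows, while Nelfe, Ssu72, Ints6 and Ints1 lie beyond −2.

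The genes whose values ran most like those of a member were found by the distance between their log2 profiles over the 6 samples, each centred on its mean, among 12912 other genes with a mean of at least 10. For Hexim1 they were Eif6 (0.105), Mrps23 (0.107) and Calcrl (0.108), where the median gene was at 1.31. For Cdk9 they were Xpo1 (0.0562), Dpm1 (0.0651) and Gpatch3 (0.066), and for Brd2 they were Atmin (0.0373), Prpf4b (0.0428) and Atp11b (0.0459). With 2 groups of samples such a distance mainly reflects the size of the change between them.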

How the data were processed

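RNA was measured in 6 samples, 3 per group. Per the submitters' processing notes, reads were trimmed with cutadapt 4.7, FastQC was run and the genome build was mm10. The sources used here do not give the aligner, counter, strand setting or annotation. The table is named for FPKM, but the deposited values are a normalised signal: in every column 100% were whole multiples of the value of 1 read (tolerance 0.01 reads), whatever the gene's length. They are taken as reads divided by 1 size factor per sample (0.7572 to 1.1808). Every pair of replicates differed beyond sampling noise (chi-square of 3.87 to 7.39 per degree of freedom), so all were kept.

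Values were tested as log2(value + 1), which understates changes of low genes, for the genes whose mean was 1 or more, with limma 3.58.1 (R 4.3.3; mean-variance trend, two-sided, Benjamini-Hochberg over all 16223 genes, threshold 0.05). On the recovered reads edgeR 4.0.16 called 10309 of 12949 genes and DESeq2 1.42.0 called 10176 of 18272. Other alternatives were a pseudocount of 5, no filter, a mean of at least 10, equal totals, quantile normalization, a replicate block, leaving out each sample, and a correction for GC content and length from GENCODE M21 transcripts, the last chosen after seeing the data. The members, role lists, ratios and tests were chosen with earlier results of these data known. Text names all members, both genes of each ratio, up to 2 called genes per direction and role list by size of change, and the 3 nearest profiles of Hexim1, Cdk9 and Brd2. Other genes were named after their values were seen (Brdt, H2-DMa, 9330020H09Rik), and CR974462.3 was named for its overlap with Brd2. A gene of the role lists and 1 ratio are not reported here.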

Additional observations from a re-analysis of the deposited data

How the results depend on the processing

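The direction and side of the threshold of Hexim1, Cdk9, Ccnt1, Ccnt2, Brd2 and Ell2 were the same in every alternative run. With equal totals Larp7 (0.05) and Mepce (0.12) no longer passed, 2 members were lower and 27 of the 76 role genes were lower in place of 14. Of all genes 42.5% were then lower in place of 33.1%. Polr2a (0.11) was −0.24 with equal totals and −0.38 with quantile normalization, where 2 members were lower too. It passed with DESeq2 (0.11, adjusted p = 0.035), after GC and length correction (0.26) and, leaving out 1 sample at a time (0.065 to 0.143), without Control replicate 2. The cause was not tested. The replicate number as a block also made Polr2a pass (0.11, adjusted p = 0.0412) and left 5272 genes higher and 5298 lower in all. The deviations of same-numbered samples correlated at −0.03, 0.05 and −0.09 over 12913 genes, and those of differently numbered samples at −0.186 to 0.179. Deviations from a mean of 3 samples are not independent. These values therefore cannot tell whether same-numbered samples share a culture or animal. The ratio of Ccnt1 to Cdk9 (−0.20) was 0.18 with quantile normalization. The sign of Hexim2 (−0.13) turned after GC and length correction (0.365), under quantile normalization (0.309) and with 1 sample left out (−0.476 to 0.062, of which 0.054, 0.022 and 0.062 were above 0), and Polr2e (−0.21) was 0.38 after GC and length correction. The ratio of Hexim1 to Cdk9 (−0.57) was −0.20 and Polr2b (0.50) no longer passed (0.03) with quantile normalization. With 3 samples a group no exact test of a ratio can go below 0.1. Depth limits Rn7sk, Hexim2, Eaf2 and Brdt, which had few reads; intervals from reads without molecular identifiers would cover counting error only.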
